A study of Mus musculus and Rattus norvegicus with 36 samples.

Results

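The 39 cell cycle genes described here are the cyclins and their kinase, the genes of DNA licensing and synthesis, the kinases and checkpoint proteins of mitosis, the genes of the spindle, kinetochore and chromosome, and a pair of p53 targets. They were measured in livers of rats and in livers and kidneys of mice fed graded dietary selenium (Se). Members were taken by gene symbol from probe sets that carry only that symbol, and where a gene had several, the probe set that averaged highest in the tissue was used. On the mouse arrays 38 of the 39 had such a probe set, out of 18193 genes with 1 symbol, and Ccnb1 was not measured. On the rat arrays 37 of the 39 had one, out of 14217 genes with 1 symbol. Tpx2 was not measured there, and Rrm2 was left out because its probe sets are shared with a second symbol.

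A cell that divides first commits to S phase under the D and E cyclins, loads the Mcm2 to Mcm7 helicase onto its replication origins and copies its DNA with the nucleotides that thymidylate synthase, thymidine kinase and ribonucleotide reductase supply. Cyclins A and B with Cdk1 then drive entry into mitosis, the Aurora and Polo kinases build the spindle, and the anaphase promoting complex ends mitosis by having the mitotic cyclins degraded. Most hepatocytes and kidney tubule cells of an adult rodent are quiescent, while the liver of a young growing rat still holds dividing hepatocytes, and transcripts of S phase and mitotic genes are most abundant in dividing cells, while Ccnd1 and the p53 targets Cdkn1a and Ccng1 also respond to other signals. In whole tissue, fewer dividing cells and less RNA per dividing cell cannot be told apart.

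All animals were male weanlings that ate the same Se-deficient torula yeast basal diet, with vitamin E and methionine added, and the diets differed in the sodium selenite added. Mice of a colony of mainly C57 black background were fed that diet for 35 days with no added Se (Se-deficient), with 0.05 μg Se/g, or with 0.2 μg Se/g (Se-adequate), and liver and kidney were both profiled. Holtzman rats were fed for 28 days, in study 2 with no added Se (Se-deficient), 0.24 (Se-adequate), 2 or 5 μg Se/g, and in study 1 with 0.8 or 0.08 μg Se/g. Each of the 12 groups had 3 arrays, 1 array per RNA sample. By the methods of the study each mouse diet had 3 mice, and RNA of both tissues came from 3 per diet. The liver and kidney arrays thus came from the same mice, but the labels do not say which arrays share a mouse. Livers were perfused in place before freezing.

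The values are log2 expression levels per probe set. By the methods of the study they were normalized separately for each rat study and each mouse tissue, so levels are not compared between those sets. Array medians lay between 6.17 and 6.29 in all 36 arrays. Hepatocyte markers averaged 13.46 to 13.70 per array in rat liver and 13.82 to 13.94 in mouse liver, and markers of kidney epithelium averaged 11.42 to 11.66 in kidney, so the tissue labels held. Replicates correlated across probe sets with r of 0.989 or more in 11 of the 12 groups. The 2 μg Se/g rats stood apart, with r from 0.972 to 0.990, and replicates 1 and 2 of that group are named below wherever they decide a value.

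In rat liver these genes were well measured. Of the 37 members, 31 had a mean above 6.27, the median over all probe sets. Over the 12 arrays of study 2 the level of Pcna, the sliding clamp of DNA polymerase, ran from 9.68 to 11.19. Ccnd1, cyclin D1, which links growth signals to the cycle, ran from 9.70 to 10.68, and the level of Cdk1, the mitotic kinase, from 7.09 to 9.70. In the mouse 22 of 38 members were above the corresponding median in each tissue. There, 18 members in liver and 22 in kidney held the same value to the last digit on 2 or more of the 9 arrays, which no member did in rat liver. Such values limit how finely the mouse arrays resolve these genes. Bub1, a spindle checkpoint kinase, held the same value on 4 mouse liver arrays, and Plk1, the Polo kinase, on 5 mouse kidney arrays.

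**Figure D1:**
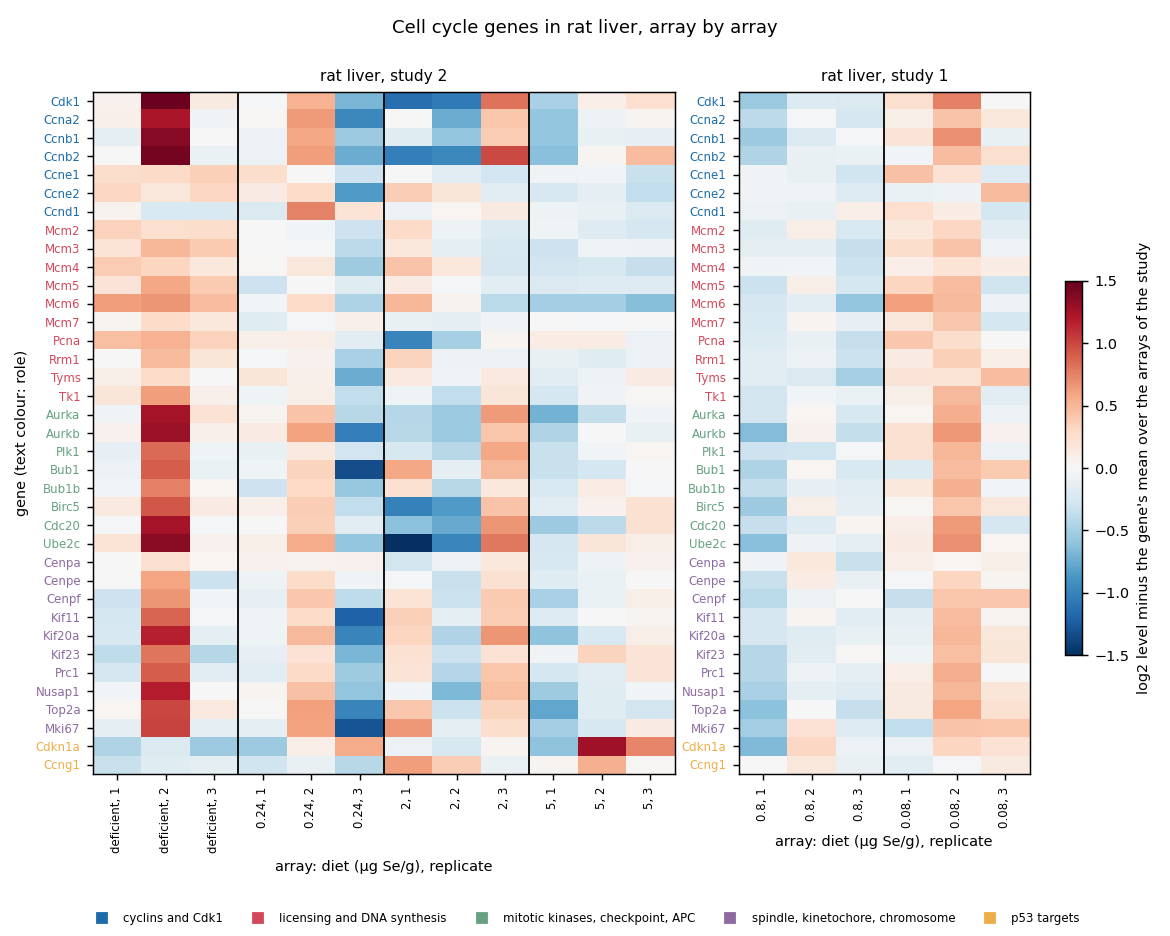
Log2 level of each of the 37 members in rat liver minus that gene's mean over the arrays of its study, with genes down the page by role and arrays across by diet and replicate. Red is above and blue below the gene's mean. The column of Se-deficient replicate 2, above its own group mean in 33 of 37 members, is mostly red, and that of 0.24 μg Se/g replicate 3, below its own group mean in 34, is mostly blue.

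In rat liver, rats fed the same diet differed widely. Cdk1 read 8.29, 9.70 and 8.36 in the 3 Se-deficient rats and 8.21, 8.75 and 7.54 in rats at 0.24 μg Se/g. With 2 μg Se/g in the diet it read 7.09, 7.17 and 9.04, while rats at 5 μg Se/g had 7.74, 8.33 and 8.48. Se-deficient replicate 2 was thus more than a log2 unit above both other rats on the diet, and the adequate group also spanned more than a log2 unit. Mki67, which encodes the proliferation marker Ki-67, read 7.56, 8.72 and 7.56 in Se-deficient rats and 7.57, 8.31 and 6.41 at 0.24 μg Se/g. Again replicate 2 of the deficient group was the high one and replicate 3 of the adequate group the low one. Ccnb2, cyclin B2, read 8.02, 9.45 and 7.91 in Se-deficient rats and 7.92, 8.64 and 7.27 at 0.24 μg Se/g, with the same rats at the ends.

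The same rats were high or low in nearly every member. Se-deficient replicate 2 was above its own group mean in 33 of 37 members, with a median deviation of 0.53, and was the highest of its group in 31. At 0.24 μg Se/g replicate 2 was above the mean in 36 members, by a median of 0.41, and replicate 3 was below it in 34, by a median of 0.39. In study 1, replicate 2 of the 0.8 μg Se/g group was above its group mean in 34 members, and so was replicate 2 of the 0.08 μg Se/g group. A replicate number only names an array, and such counts describe these arrays, since the genes of 1 rat are not independent.

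In study 2 the within-diet SD of a member had a median of 0.407, against 0.167 over all probe sets, and 21 of the 37 members were above 0.34, the 90th percentile of all probe sets. The 10 genes of licensing and DNA synthesis had a median SD of 0.235, with Mcm7 at 0.0915 and Mcm6 at 0.298. The 8 mitotic kinases, checkpoint genes and anaphase promoting complex genes had a median of 0.552, and the 7 cyclins with Cdk1 had 0.574. The highest SDs were those of Ccnb2 (0.842), Cdk1 (0.769) and Ube2c (0.767), the ubiquitin-conjugating enzyme of the anaphase promoting complex. Study 1 was tighter, with a median member SD of 0.245 against 0.147 over all probe sets, and mouse liver (0.163 against 0.119) and kidney (0.129 against 0.118) were tighter still.

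**Figure D2:**
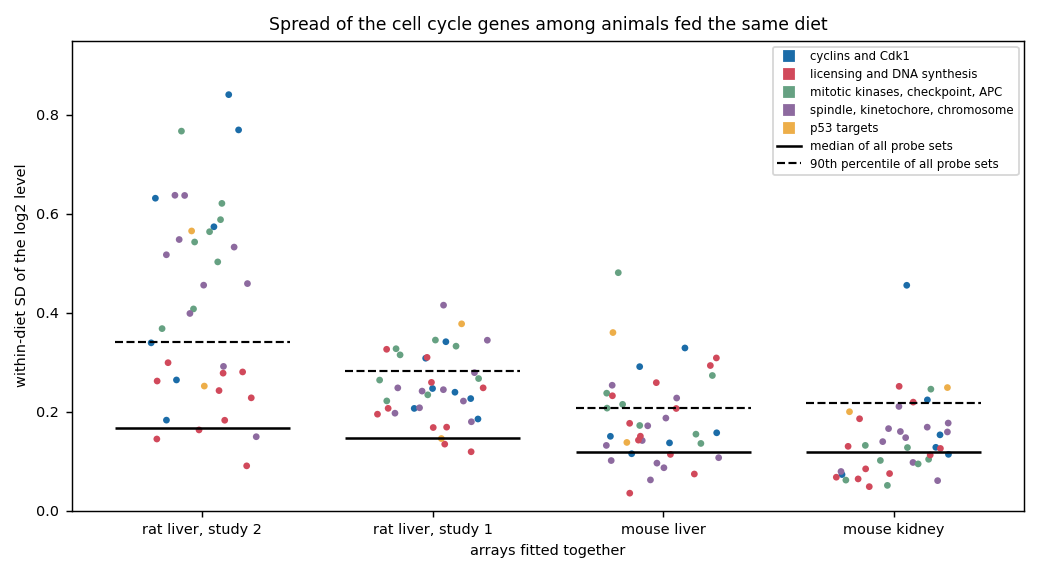
SD of the log2 level among animals of the same diet for each member (points, coloured by role) in the 4 sets of arrays that were fitted together, with the median (solid line) and 90th percentile (dashed line) of all probe sets. In rat study 2 most mitotic genes lie above the dashed line at 0.34, while the genes of licensing and DNA synthesis lie below it.

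Markers of other cell types also varied among rats of a diet. Erythroid markers averaged 5.28 in Se-deficient replicate 2, against 5.75 and 5.61 in the other Se-deficient rats, and 5.36 in replicate 3 at 0.24 μg Se/g, against 5.43 and 5.09 in the others of its group. In study 1, replicate 2 at 0.8 μg Se/g had the highest erythroid mean of its group, 5.61 where the others had 5.50 and 5.46, and replicate 2 at 0.08 μg Se/g the lowest, 5.43 where the others had 5.99 and 5.49. Lymphocyte markers averaged 5.78 in Se-deficient replicate 2, where the other 2 had 5.87 and 6.07. Bile duct markers averaged 5.97 in replicate 3 at 0.24 μg Se/g, the lowest of that group, where the others had 7.05 and 6.36, and 6.36 in Se-deficient replicate 2, between the 6.60 and 6.15 of the others. The part of other cell types in these deviations was not tested. Array medians of these 2 rats of study 2 were 6.27 and 6.26, and the 3′ minus 5′ differences of the actin control were 1.51 and 1.49. Over all rat arrays, with these rats included, the ranges were 6.24 to 6.29 and 1.38 to 1.98.

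Genes outside the member list that serve the same steps followed the same rats. The other G2/M genes, 34 of 42 listed with a rat probe set, averaged 7.87 in Se-deficient replicate 2, against 7.02 and 7.03 in replicates 1 and 3. At 0.24 μg Se/g they averaged 6.94, 7.31 and 6.5. The lowest of those belonged to replicate 3, the rat that was low in the members. The other S phase genes, 28 of 32 listed, differed less, with 7.13, 7.18 and 7.09 in Se-deficient rats and 6.89, 6.95 and 6.64 at 0.24 μg Se/g.

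Promoters of cell cycle genes are known for a few short sequences, and 5 promoters are shown because their genes carry the rat results, Cdk1, Ccnb2 and Ube2c as the most variable and Mcm5 and Mcm6 as licensing genes. The sequences are mouse sequences from RefSeq (GRCm38.p6), since rat promoters were not used here, and 32 of the 39 members had at least 1 start site, with 35 in all. Each line gives the 250 bases before the start site, 5′ to 3′. Capitals mark CCAAT, the box bound by NF-Y, TTTGAA, the cell cycle homology region of mitotic genes, and TTTCCCGC, TTTGGCGC, TTTCGCGC or TTTGCCGC, spellings of the E2F site, on either strand. Cdk1 lies at chr10:69352913-69353162 (minus strand), Ccnb2 at chr9:70421555-70421804 (minus strand), Ube2c at chr2:164769679-164769928 (plus strand), Mcm5 at chr8:75109259-75109508 (plus strand) and Mcm6 at chr1:128359706-128359955 (minus strand).
Cdk1: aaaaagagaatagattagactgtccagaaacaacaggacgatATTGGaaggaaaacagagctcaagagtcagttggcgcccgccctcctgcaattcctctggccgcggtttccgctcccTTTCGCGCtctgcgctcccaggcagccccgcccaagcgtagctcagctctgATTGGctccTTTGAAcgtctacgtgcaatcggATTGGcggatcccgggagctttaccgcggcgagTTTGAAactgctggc
Ccnb2: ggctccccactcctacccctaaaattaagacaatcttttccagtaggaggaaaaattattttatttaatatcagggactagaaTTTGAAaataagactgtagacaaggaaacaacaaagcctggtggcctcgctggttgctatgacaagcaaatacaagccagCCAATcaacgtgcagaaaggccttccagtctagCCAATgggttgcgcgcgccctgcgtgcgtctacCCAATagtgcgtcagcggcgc
Ube2c: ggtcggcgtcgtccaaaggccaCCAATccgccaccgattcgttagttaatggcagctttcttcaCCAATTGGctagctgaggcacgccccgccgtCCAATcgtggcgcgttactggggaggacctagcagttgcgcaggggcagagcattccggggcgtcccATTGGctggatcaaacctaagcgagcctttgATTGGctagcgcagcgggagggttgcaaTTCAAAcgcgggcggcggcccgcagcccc
Mcm5: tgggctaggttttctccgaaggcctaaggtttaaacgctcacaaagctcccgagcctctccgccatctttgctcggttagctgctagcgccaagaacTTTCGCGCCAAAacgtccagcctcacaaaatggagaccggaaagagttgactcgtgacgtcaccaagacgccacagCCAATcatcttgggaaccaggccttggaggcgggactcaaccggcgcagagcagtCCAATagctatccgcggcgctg
Mcm6: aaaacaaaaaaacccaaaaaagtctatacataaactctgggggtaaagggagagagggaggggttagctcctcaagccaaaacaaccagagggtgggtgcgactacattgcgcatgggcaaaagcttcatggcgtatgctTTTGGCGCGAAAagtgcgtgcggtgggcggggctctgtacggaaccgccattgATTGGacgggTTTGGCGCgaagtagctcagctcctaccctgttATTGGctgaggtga

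CCAAT on either strand stood in 28 of the 35 windows of members, against 33.8% of all 32851 windows. Ube2c held it 6 times, once on both strands in overlapping letters, and Cdk1 and Ccnb2 held it 3 times each. TTTGAA stood in 9 of the 35, against 16% of all windows, and 8 of those 9 belonged to cyclin, mitotic and spindle genes. The E2F spellings stood in 4 of the 35, against 1.86% of all windows. They were found in Mcm5, Mcm6, Mcm7 and Cdk1, and in Mcm5 and Mcm6 both strands carry them in overlapping letters. TATAAA, searched for contrast, stood in 0 of the 35 and in 12.4% of all windows. These are matches of letters in a mouse window of 1 length and show no binding in these livers.

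**Figure D3:**
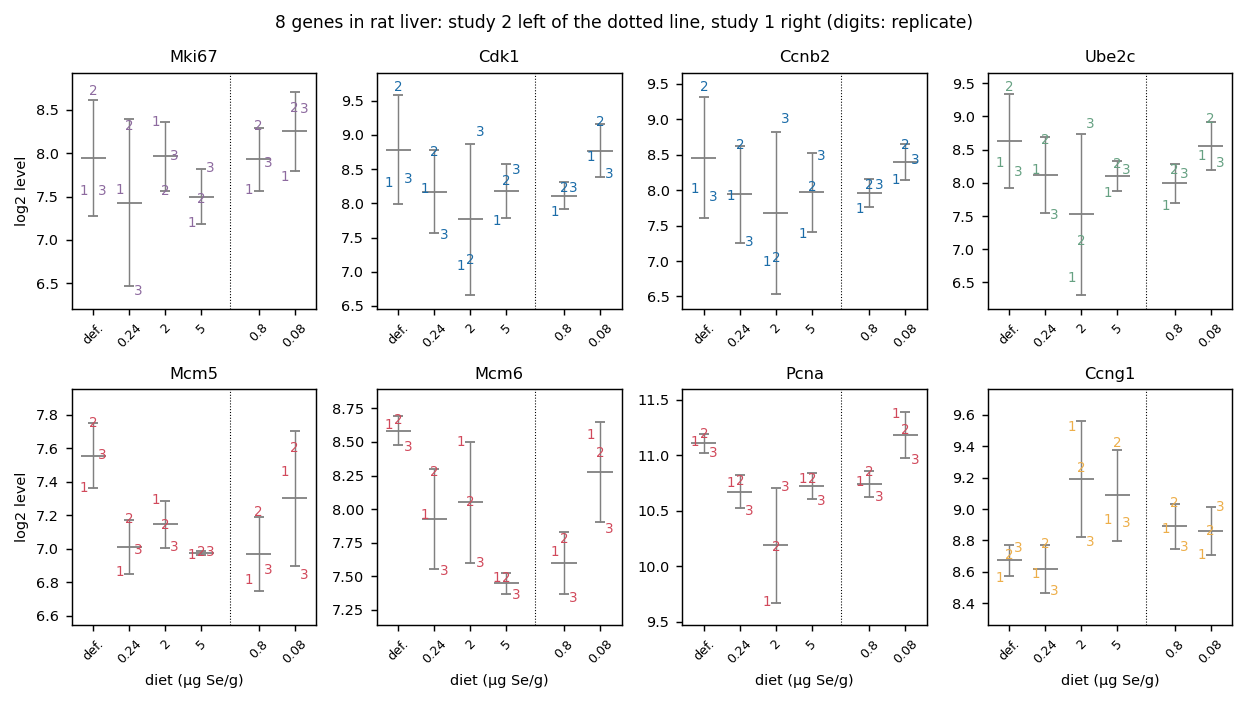
Log2 levels of 8 members in rat liver, each digit standing for the replicate with that number, with the group mean and 1 SD (n = 3) in grey. Study 2 is left of the dotted line and study 1 right of it. Mcm5 and Pcna in Se-deficient rats lie above all 0.24 μg Se/g rats, while Cdk1, Ccnb2 and Ube2c overlap between diets.

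In rat liver, 5 genes of licensing and DNA synthesis read higher in every Se-deficient animal than in every Se-adequate one, but no member passed the test. Mcm5, a subunit of the replicative helicase, read 7.36, 7.75 and 7.56 in Se-deficient rats, against 6.86, 7.18 and 6.99 at 0.24 μg Se/g. The groups did not overlap, and the log2 difference was 0.54 (SE 0.12, adjusted p = 0.89 in limma). Mcm6 read 8.63, 8.66 and 8.46 in Se-deficient rats, against 7.96, 8.28 and 7.54, a difference of 0.66 (SE 0.21, adjusted p = 1). Mcm3 (7.15 ± 0.15 against 6.64 ± 0.22, SD, n = 3 each) and Mcm2 (8.26 ± 0.05 against 7.86 ± 0.17) also had no overlap, with differences of 0.51 and 0.41. So did Pcna, which read 11.12, 11.19 and 11.02 in Se-deficient rats, against 10.75, 10.77 and 10.50. Tk1, thymidine kinase, was at 9.0 ± 0.29 against 8.59 ± 0.23 and overlapped. In limma 0 of the 37 members were called at an adjusted p under 0.05, where 0.00322% of all probe sets were.

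Without adjustment 5 members were higher at p under 0.05 (13.5%), all 5 of them genes of licensing and DNA synthesis, against 1.52% of all probe sets, and 0 were lower, against 1.88%. The same share, 5 members that include Pcna but not Tk1, had all 3 Se-deficient rats above all 3 adequate rats, against 5.75% of all probe sets, and 0 had them all below, against 5.89%. The mean was higher in Se-deficient livers for 35 of 37 members, where it was higher for 45.9% of all probe sets. The median log2 change was 0.42, against −0.014 over all probe sets. The 2 members with a lower mean were Ccnd1 (9.80 ± 0.17 against 10.18 ± 0.48, change −0.38, adjusted p = 1) and Cdkn1a, the p53-induced inhibitor p21 (8.20 ± 0.16 against 8.64 ± 0.56). Ccng1, cyclin G1, another p53 target, was at 8.68 ± 0.10 against 8.62 ± 0.15.

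The count of higher means was smaller without Se-deficient replicate 2 or 0.24 μg Se/g replicate 3. These rats were above and below their own group means in most members, so leaving them out lowers most differences by construction. For Cdk1 the log2 difference was 0.62 (SE 0.53) and for Mki67 0.51 (SE 0.44), each close to its SE. With both Se-deficient replicate 2 and 0.24 μg Se/g replicate 3 left out, a choice made after the values were seen, 12 of the 37 members had a higher mean, the median change was −0.15, Cdk1 was at −0.15 and Mki67 at −0.38. With only Se-deficient replicate 2 left out the median was 0.13, and 26 of 37 means were still higher. With only the 0.24 μg Se/g replicate 3 left out it was 0.16, and 30 means were higher. The count at an unadjusted p under 0.05 was 1 with both left out and 13 without 0.24 μg Se/g replicate 2. The Mcm5 difference was 0.44 to 0.64 over all alternatives, and that of Mcm6 0.43 to 0.84.

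Other genes of the pathway had mostly higher means in Se-deficient rats, and 0 of them passed the test. Of 28 other S phase genes, 27 had a higher mean and 14 had no overlap, with a median change of 0.32. Of 34 other G2/M genes all 34 had a higher mean and 2 had no overlap, over the same rats. Over all probe sets 5.75% were higher without overlap and 5.89% lower. The 26 regulators of the G1/S transition had 18 higher and 8 lower means (median 0.11), with 7 higher and 1 lower without overlap. The 15 other p53 target genes had 11 and 4 (median 0.15), with 4 and 1 without overlap. Myc and Gadd45a had the smallest p of these last lists. Cdt1, the factor that loads the helicase, read 6.45, 6.01 and 5.97 in Se-deficient rats, against 5.73, 5.62 and 5.16 at 0.24 μg Se/g. The log2 difference was 0.64 (SE 0.17, adjusted p = 1). Myc, a transcription factor that promotes entry into the cycle, read 9.36, 9.27 and 10.06 in Se-deficient rats, against 8.05, 7.70 and 8.59, a difference of 1.45 (SE 0.39, adjusted p = 1). Gadd45a, a growth arrest gene that p53 induces, read 10.07, 10.52 and 10.39, against 9.63, 8.84 and 9.57, a difference of 0.98 (SE 0.23, adjusted p = 1). In Myc and Gadd45a, as in Cdt1, every Se-deficient rat lay above every adequate rat.

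At 2 μg Se/g the members split, and 0 of 37 were called, where 0.00322% of all probe sets were. Ccng1 read 9.52, 9.26 and 8.79 at 2 μg Se/g, against 8.59, 8.78 and 8.48 at 0.24 μg Se/g. All 3 rats were above all 3 adequate rats, by a mean of 0.57 (SE 0.19, adjusted p = 0.32), and Ccng1 was the 1 member of 37 (2.7%) without overlap and higher, against 5.85% of all probe sets, while 0 were lower without overlap, against 6.9%. At an unadjusted p under 0.05, 1 member was higher, against 8.49% of all probe sets, and 1 was lower, against 6.85%. Pcna read 9.68, 10.17 and 10.71 at 2 μg Se/g, against 10.75, 10.77 and 10.50. Replicates 1 and 2 were below every adequate rat and replicate 3 was among them (difference −0.49, SE 0.20, adjusted p = 0.32). Bub1 read 7.68, 6.96 and 7.58, against 7.03, 7.43 and 5.77, a difference of 0.67 (SE 0.39, adjusted p = 0.39) with overlap. Means were higher for 20 members (54.1%), against 45.5% of all probe sets, with a median change of 0.06. This count depended on single arrays of both diets. Without 0.24 μg Se/g replicate 2 it was 28, with a median of 0.19, and without 0.24 μg Se/g replicate 3 it was 11, with a median of −0.06. Leaving out replicate 2 at 2 μg Se/g gave 27 and a median of 0.16, and leaving out replicate 3 gave 17 and −0.07. Ccnd1 (9.96 ± 0.11 against 10.18 ± 0.48) and Cdkn1a (8.51 ± 0.14 against 8.64 ± 0.56) overlapped.

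The rats of this group differed from each other by gene. Cdk1 read 7.09 and 7.17 in replicates 1 and 2 at 2 μg Se/g, and 9.04 in replicate 3. Ccnb2 read 6.99, 7.04 and 9.0, Ube2c 6.56, 7.12 and 8.89, and Birc5, survivin of the chromosomal passenger complex, 6.46, 6.62 and 7.90. In those 4 genes replicates 1 and 2 were the lowest of all 12 rats of the study. Mki67 in contrast read 8.36, 7.56 and 7.97, and Top2a, the topoisomerase that untangles sister chromosomes, read 8.58, 7.86 and 8.51, so that replicate 1 was the highest of its group in both. Replicates 1 and 2 are the arrays that set this group apart over all probe sets, and the part of the arrays themselves in these values was not tested. Calls here depend on them. With replicate 3 left out, Birc5, Ccng1, Pcna and Ube2c were called, where 5800 of the 31042 probe sets were. With array weights, which give less weight to arrays far from their group, 13 members were called, where 13048 probe sets were. The weights moved Cdk1 and Ube2c towards replicates 1 and 2 and away from replicate 3, and the median change of the members was −0.29.

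At 5 μg Se/g, where 2.82% of all probe sets were called, 0 of the 37 members were. Ccng1 read 8.93, 9.42 and 8.91 at 5 μg Se/g, against 8.59, 8.78 and 8.48 at 0.24 μg Se/g, a difference of 0.47 (SE 0.19, adjusted p = 0.26) without overlap. Mcm6 read 7.49, 7.49 and 7.36, against 7.96, 8.28 and 7.54, a difference of −0.48 (SE 0.21, adjusted p = 0.33), also without overlap. These were the only members without overlap, 1 in each direction, where 11.1% of all probe sets had none and were higher and 12.5% had none and were lower. They were also the members with an unadjusted p under 0.05, 1 higher, against 7.85% of all probe sets, and 1 lower, against 6.86%. Cdkn1a read 8.0, 9.87 and 9.33 at 5 μg Se/g, against 8.06, 8.70 and 9.16. Replicates 2 and 3 were above every adequate rat and replicate 1 was below them (difference 0.43, SE 0.39, adjusted p = 0.68). A dimmer Cdkn1a probe set differed by 0.63 (adjusted p = 0.41 in limma). Ccnd1 was at 9.80 ± 0.08 against 10.18 ± 0.48 (difference −0.38, SE 0.19, adjusted p = 0.40) and Mki67 at 7.5 ± 0.32 against 7.43 ± 0.96. Means were higher for 16 of 37 members, where they were for 42.6% of all probe sets, and the median change was −0.03, against −0.034. Neither the count nor the sign of the median was stable. Without 0.24 μg Se/g replicate 3, 4 means were higher and 33 lower (median −0.28), while without 0.24 μg Se/g replicate 2 there were 28 higher (median 0.11). Without 5 μg Se/g replicate 1 there were 23 (median 0.06), without its replicate 3 there were 10 (median −0.08), and with quantile normalization 9 (median −0.07).

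Some markers of other cell types were called at 5 μg Se/g, where 2.82% of all probe sets were. Of 8 stellate cell and fibroblast markers, 3 rose and 2 fell past the adjusted test, with changes from −2.11 to 1.62 over the list, and the list averaged 8.09, 8.20 and 8.67 at 5 μg Se/g, against 8.17, 8.48 and 8.07 at 0.24 μg Se/g, with overlap. Of 5 endothelial markers 2 rose (changes of the list −0.35 to 0.92), of 6 macrophage and Kupffer cell markers 1 fell (−1.78 to 0.17), and of 4 bile duct markers 1 rose (0.11 to 2.63). The macrophage and Kupffer cell list averaged 9.0, 9.01 and 9.20, against 9.42, 9.28 and 9.52, so the groups did not overlap. Bile duct markers averaged 7.86, 7.42 and 6.87, against 7.05, 6.36 and 5.97, and overlapped. No erythroid or lymphocyte marker was called. Erythroid markers averaged 6.06, 6.04 and 5.36, against 5.43, 5.09 and 5.36, and overlapped. Lymphocyte markers averaged 6.25, 6.28 and 6.06, against 5.93, 5.65 and 5.91, without overlap. All 5 lymphocyte and all 6 erythroid markers had a higher mean. Of these, 3 lymphocyte markers and 1 erythroid marker had no overlap, against 11.1% of all probe sets. The part of other cell types in the member values was not tested.

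In the neighbouring lists, 1 of 28 other S phase genes and 1 of 15 other p53 target genes passed the test at 5 μg Se/g. None of the 34 other G2/M genes or 26 regulators of the G1/S transition did, and 2.82% of all probe sets were called. Mdm2, the p53 target that marks p53 for degradation, rose in all 3 rats, reading 9.29, 9.07 and 8.91, against 8.57, 8.46 and 8.51 at 0.24 μg Se/g. The log2 change was 0.58 (SE 0.13, adjusted p = 0.032). At 2 μg Se/g Mdm2 read 8.99, 8.85 and 8.84, also above every adequate rat (difference 0.38, SE 0.13, adjusted p = 0.32 in limma). Chek1, the checkpoint kinase of stalled replication, fell, reading 7.54, 7.15 and 7.52, against 7.93, 7.98 and 8.07. The change was −0.59 (SE 0.13, adjusted p = 0.036). Both calls were lost when 5 μg Se/g replicate 1 or 2, or any 0.24 μg Se/g replicate, was left out, with adjusted p of 0.083 to 0.14 for Mdm2 and 0.069 to 0.14 for Chek1. With all arrays kept, the call of Mdm2 was also lost with a replicate block (adjusted p = 0.058), and that of Chek1 with only its 2 groups in the fit (0.059) or with all rat arrays (0.066). Of the 15 other p53 target genes measured, Mdm2 was thus the 1 that was called, with 10 of 15 means higher and a median change of 0.18. At an unadjusted p under 0.05, 5 of the 15 were higher and 1 lower, against 7.85% and 6.86% of all probe sets. Without overlap 5 were higher and 2 lower, against 11.1% and 12.5%. The 26 regulators of the G1/S transition had 13 higher and 13 lower means. Of these regulators 5 were higher and 0 lower at that p, and 7 were higher and 1 lower without overlap. Among them, Myc read 9.6, 9.85 and 8.90 at 5 μg Se/g, against 8.05, 7.70 and 8.59, a difference of 1.34 (SE 0.39, adjusted p = 0.10). Every 5 μg Se/g rat, like every Se-deficient rat, lay above the adequate rats, which both comparisons share.

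**Figure D4:**
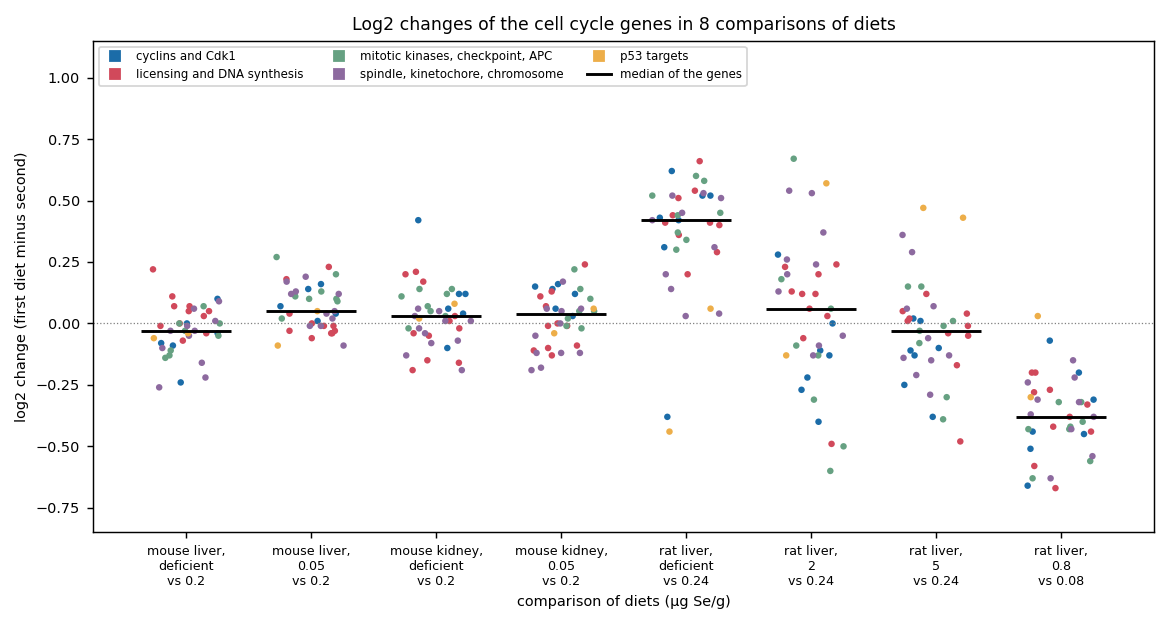
Log2 change of each member in the 8 comparisons of diets (points, coloured by role, first diet minus second) with the median of the members as a black line. The medians of the 4 mouse comparisons lie between −0.03 and 0.05, that of Se-deficient rats is 0.42 and that of 0.8 against 0.08 μg Se/g is −0.38.

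Within rat study 1, livers at 0.8 μg Se/g had lower levels of nearly all members than livers at 0.08 μg Se/g. Of 37 members, 36 had a lower mean, where 49.9% of all probe sets did, and the exception was Ccng1 (8.89 ± 0.14 against 8.86 ± 0.15). The median log2 change was −0.38, against 0 over all probe sets. In limma 0 members and 0% of all probe sets were called, with 0.97 as the smallest adjusted p of a member. Without adjustment 20 members (54.1%) were lower at p under 0.05, against 2.75% of all probe sets, and 0 were higher, against 1.83%. For 14 members (37.8%) the groups did not overlap, with all 3 rats at 0.8 μg Se/g lower, against 5.26% of all probe sets, and 0 were higher without overlap, against 4.2%. This direction was known for cell cycle genes of these arrays before the members were chosen, so it is no independent evidence.

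Tyms, thymidylate synthase, read 6.28, 6.22 and 5.94 at 0.8 μg Se/g, against 6.63, 6.64 and 6.90 at 0.08 μg Se/g. It ranked first among the members, without overlap, at a difference of −0.58 (SE 0.13, adjusted p = 0.97 in limma). Mcm6 read 7.68, 7.78 and 7.34, against 8.55, 8.42 and 7.85, a difference of −0.67 (SE 0.20), and Pcna read 10.76, 10.85 and 10.62, against 11.37, 11.23 and 10.96, a difference of −0.44 (SE 0.13). Neither overlapped. Among the cyclins, Cdk1 read 7.88, 8.23 and 8.22, against 8.68, 9.19 and 8.43 (difference −0.66, SE 0.19), and Ccna2, cyclin A2 of S phase and early mitosis, read 7.12, 7.49 and 7.26, against 7.60, 7.95 and 7.68. Among the genes of spindle and chromosome, Top2a read 7.93, 8.55 and 8.19, against 8.67, 9.13 and 8.77 (difference −0.63, SE 0.18), and Nusap1, which binds spindle microtubules, read 7.60, 7.96 and 7.90, against 8.22, 8.59 and 8.27 (difference −0.54, SE 0.14). Each of these 4 genes had every 0.8 μg Se/g rat below every 0.08 μg Se/g rat.

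By role, 10 of 10 genes of licensing and DNA synthesis had a lower mean at 0.8 μg Se/g, 6 of them without overlap, and so did 8 of 8 mitotic kinases, checkpoint genes and anaphase promoting complex genes (2 without overlap), 10 of 10 spindle and chromosome genes (3 without overlap) and 7 of 7 cyclins with Cdk1 (3 without overlap). Over all probe sets 5.26% were lower without overlap. Mki67 read 7.58, 8.31 and 7.89, against 7.72, 8.52 and 8.51, and overlapped (difference −0.32, SE 0.25). Ccnd1 was at 10.20 ± 0.11 against 10.27 ± 0.27, and Cdkn1a at 8.64 ± 0.49 against 8.94 ± 0.22, a difference of −0.30 (SE 0.23). A dimmer Cdkn1a probe set, at 5.14 against 5.70, differed by −0.56 (unadjusted p = 0.0028, adjusted p = 0.97 in limma). Dimmer Ccnd1 probe sets differed by −0.16 and 0.17. Of the other G2/M genes, 32 of 34 had a lower mean and 11 had no overlap, with a median of −0.39, and of the other S phase genes 25 of 28 and 8. Pttg1, securin, read 7.89, 7.90 and 8.0, against 8.25, 8.54 and 8.42 (difference −0.48, SE 0.11), and Chek1 read 7.58, 7.07 and 7.27, against 8.29, 8.44 and 7.78 (difference −0.87, SE 0.19). The 15 other p53 target genes split, with 8 lower and 7 higher means and a median of −0.03. At an unadjusted p under 0.05, 5 were lower and 2 higher, against 2.75% and 1.83% of all probe sets. Without overlap 5 were lower and 1 higher, against 5.26% and 4.2%. Sesn1, a stress-induced sestrin, read 8.34, 8.40 and 8.35, against 8.96, 8.89 and 8.79 (difference −0.52, SE 0.09), and Tp53inp1 read 5.94, 6.36 and 6.22, against 6.44, 6.59 and 7.05 (difference −0.52, SE 0.18). Plk2, a Polo kinase that p53 induces, had the opposite sign, with 10.63, 10.93 and 11.04, against 10.08, 10.26 and 10.02 (difference 0.75, SE 0.13, adjusted p = 0.97).

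When the 18 rat arrays were fitted together, 5 members in place of 20 were lower at an unadjusted p under 0.05, and 8 were without replicate 2 at 0.08 μg Se/g, 10 without replicate 1 at 0.8 μg Se/g. The direction stayed, with 36 or 37 of 37 means lower whichever array was left out and 31 of 32 lower when probe sets below the median level were left out. Hepatocyte markers averaged 13.62, 13.55 and 13.67 at 0.8 μg Se/g, against 13.63, 13.70 and 13.59. Erythroid markers averaged 5.50, 5.61 and 5.46, against 5.99, 5.43 and 5.49, and both lists overlapped between the diets. Of 5 lymphocyte markers 1 was higher and 2 lower without overlap, and of 4 bile duct markers 1 was higher. Over all probe sets 4.2% were higher and 5.26% lower without overlap. The part of other cell types in the member values was not tested.

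**Figure D5:**
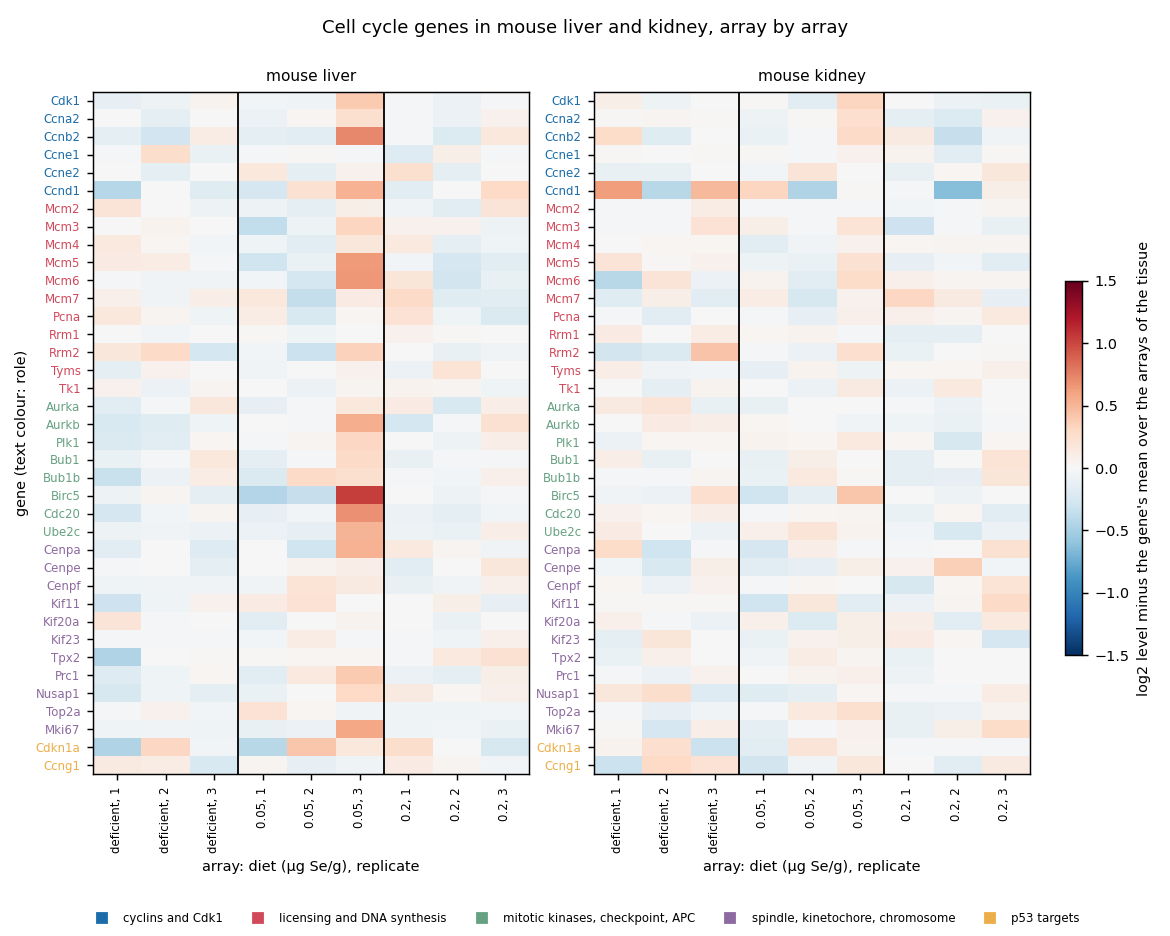
Log2 level of each of the 38 members in mouse liver (left) and kidney (right) minus that gene's mean over the 9 arrays of the tissue, on the same colour scale as for the rat. Most cells are pale, and the column of mouse liver replicate 3 at 0.05 μg Se/g is the one that stands out, above its own group mean in 33 of 38 members.

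In Se-deficient against Se-adequate mouse livers 0 of 38 were called, where 0.0222% of all probe sets were, and the median log2 change was −0.03, against −0.016 over all probe sets. At an unadjusted p under 0.05, 0 members were higher, against 2.39% of all probe sets, and 0 were lower, against 2.24%. With a replicate block 2 were lower and 0 higher at that p, and 0 were called. Means were higher for 15 members, where they were for 43.9% of all probe sets. Mki67 was at 6.09 ± 0.01 in Se-deficient livers and 6.09 ± 0.03 in Se-adequate livers (SD, n = 3 each). Nusap1 read 5.77, 5.94 and 5.87 in Se-deficient livers, against 6.14, 6.03 and 6.08, the 1 member lower without overlap (difference −0.22, SE 0.10, adjusted p = 0.93), where 4.15% of all probe sets were. Mcm5, at 6.69, 6.68 and 6.55 against 6.53, 6.31 and 6.40, was the 1 member higher without overlap, where 3.45% of all probe sets were. Tpx2, which activates Aurora kinase A on the spindle, read 7.21, 7.66 and 7.68, against 7.63, 7.80 and 7.89, and overlapped (difference −0.26, SE 0.12, adjusted p = 0.93). Ccnd1 was at 8.09 ± 0.21 against 8.33 ± 0.23, a difference of −0.24 (SE 0.19). Cdkn1a (8.41 ± 0.38 against 8.47 ± 0.25) and Ccng1 (8.98 ± 0.21 against 9.02 ± 0.09) lay within their spread.

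At 0.05 against 0.2 μg Se/g 0 of 38 members and 0% of all mouse liver probe sets were called, and 1 mouse stood apart. At an unadjusted p under 0.05, 0 members were higher and 0 lower, against 1.07% and 0.879% of all probe sets, and 0 were without overlap, against 3.06% higher and 2.4% lower. Means were higher for 26 members, where they were for 51.4% of all probe sets. Mki67 read 6.04, 6.06 and 6.73 at 0.05 μg Se/g, against 6.09, 6.11 and 6.05 at 0.2 μg Se/g. Birc5 read 5.36, 5.46 and 6.84, against 5.81, 5.73 and 5.78, and Cdc20, an activator of the anaphase promoting complex, read 7.65, 7.73 and 8.46, against 7.68, 7.64 and 7.73. Replicate 3 at 0.05 μg Se/g was the high mouse in all 3 genes, and it was the highest of its group in 25 of 38 members. That mouse also had the highest lymphocyte marker mean of the 9, 7.13 against 6.47 to 6.69 in the other 8, and the highest macrophage and Kupffer cell mean, 9.74. Their part in the result was not tested. The median member change was 0.05 with that mouse and −0.05 without it. Top2a (difference 0.12), Cdc20 (0.27) and Cenpf, a kinetochore protein (0.13), had the smallest p of the members, each with an adjusted p of 1. Ccnd1 (8.45 ± 0.40 against 8.33 ± 0.23), Cdkn1a (8.52 ± 0.42 against 8.47 ± 0.25) and Ccng1 (8.93 ± 0.09 against 9.02 ± 0.09) overlapped.

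In mouse kidney 0 of 38 members were called in either comparison, where 0.00666% of all probe sets were in the Se-deficient comparison, and 0% in that of 0.05 with 0.2 μg Se/g. Rrm1, the large subunit of ribonucleotide reductase, read 7.69, 7.55 and 7.67 in Se-deficient kidneys, against 7.43, 7.42 and 7.55, a difference of 0.17 (SE 0.07, adjusted p = 0.89). Mcm3 read 6.63, 6.63 and 6.86, against 6.33, 6.61 and 6.53 (difference 0.21, SE 0.10), and Aurkb, Aurora kinase B, read 4.79, 4.92 and 4.90, against 4.73, 4.70 and 4.77 (difference 0.14, SE 0.07). In Mcm3 and Aurkb the groups did not overlap, as in 3 of 38 members that were higher (7.89%), against 4.41% of all probe sets. Mcm3 held the same value on 3 or more kidney arrays, and Aurkb lay below 6.27, the median over all probe sets. Pcna, at 10.06, 9.91 and 10.07 against 10.15, 10.12 and 10.23, was the 1 lower without overlap, against 4.25%. Rrm1 was the 1 member higher at an unadjusted p under 0.05, against 2.77% of all probe sets, and 0 were lower, against 2.66%. Means were higher for 24 members, where they were for 47.3% of all probe sets. At 0.05 μg Se/g Ube2c read 5.68, 5.80 and 5.66, against 5.57, 5.38 and 5.52 at 0.2 μg Se/g (difference 0.22, SE 0.08), and Mcm3 read 6.73, 6.63 and 6.85 (difference 0.24, SE 0.10). Neither overlapped, against 3.33% of all probe sets higher and 3.15% lower without overlap, and each had an adjusted p of 1. They were also the 2 members higher at an unadjusted p under 0.05, against 1.56% of all probe sets, while 0 were lower, against 1.35%. Top2a, which overlapped, differed by 0.17 (SE 0.08). Means were higher for 23 members, where they were for 49.2% of all probe sets. The median change of the members was 0.03 in Se-deficient kidneys and 0.04 at 0.05 μg Se/g.

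Mki67 was at 5.05 ± 0.19 in Se-deficient, 5.06 ± 0.11 at 0.05 and 5.18 ± 0.19 at 0.2 μg Se/g. Ccnd1 was at 10.45 ± 0.57, 10.18 ± 0.39 and 10.03 ± 0.39, Cdkn1a at 8.51 ± 0.29, 8.54 ± 0.18 and 8.48 ± 0.0, and Ccng1 at 10.76 ± 0.33, 10.64 ± 0.22 and 10.67 ± 0.15. In each of these 4 genes the groups overlapped. Ccnd1 had the largest within-diet SD of the members in kidney, 0.456, with 10.84, 9.80 and 10.70 in the Se-deficient mice.

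Whether the response to Se deficiency differed between mouse liver and kidney was tested in 1 fit over the 18 mouse arrays, which treats liver and kidney arrays as independent. In limma 0 of 38 members differed, where 0.00222% of all probe sets did, with a smallest adjusted p of 0.83. Liver and kidney arrays of the same number deviated together at 0.05 and at 0.2 μg Se/g but not in Se-deficient mice. When a liver and a kidney array that share diet and number were paired in a block, 0 members differed as well. For 30 of the 38 the same probe set stood for the gene in both tissues. The rat and mouse comparisons were not set against each other by a test, since the arrays differ.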

How the data were processed

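RNA of 36 tissue samples was labelled, after purification of mRNA for the mouse, and hybridized to Affymetrix mouse and rat expression arrays. The deposited values are log2 levels per probe set that the authors made from the scans. The submitters' processing notes name GCRMA, while the methods of the study name RMA, run per study and per mouse tissue. The assignment of rat diets to studies 1 and 2 follows the text of the study. Values were used as deposited, and 0 sample columns were left unused. Gene symbols came from the platform annotation.

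Each set of arrays was fitted with limma 3.58.1 in R 4.3.3 (lmFit with 1 coefficient per diet, eBayes defaults). P-values were adjusted by Benjamini-Hochberg over all 45037 mouse or 31042 rat probe sets that are not array controls, with 0.05 as the threshold. Arrays limit the precision, and with 3 against 3 the smallest exact p would be 0.10. A p-value sets the difference of group means against the spread between arrays within groups, pooled over all groups of the fit. With eBayes that spread also draws on all probe sets. A group with variable arrays thus also affects the p-values of comparisons between other groups of its fit. The members and lists were chosen with earlier results of these data known. Per comparison the text names called members, the 3 with the smallest p, Mki67, Ccnd1, Cdkn1a and Ccng1, up to 6 with the largest change, and up to 3 genes of each other list. Members named for their levels were chosen after the values were seen. Alternatives were other sets of arrays in the fit, limma with trend and robust, array weights, a filter on dim probe sets, quantile normalization, a replicate block, any probe set of a gene, and leaving out each array.

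Residuals of same-numbered arrays in mouse liver, deficient with adequate, had correlations of 0.462, 0.105 and 0.319, each above the limit of 0.1. Every other pair of diets had at least 1 number below it. Across tissues, liver with kidney, same-numbered arrays had 0.212, 0.249 and 0.212 in the 0.05 μg Se/g group, 0.241, 0.116 and 0.214 in the 0.2 μg Se/g group, and −0.114, 0.031 and −0.063 in Se-deficient mice. The numbers come from the labels, which name no shared animal. Promoter windows came from RefSeq. Python 3.11.15 with pandas 2.3.3 and matplotlib 3.10.9 searched them and drew the figures. The fits were tested on simulated data. Se levels, enzyme activities and qRT-PCR values were not analysed here.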

Additional observations from a re-analysis of the deposited data

How the results depend on the processing

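The count of members called was 0 in all 8 comparisons of diets and in the test between tissues, and it stayed 0 under every alternative except at 2 and 5 μg Se/g. With limma array weights 13 members were called at 2 μg Se/g, among them Ccng1 (0.62), Pcna (−0.56), Cdk1 (−1.14) and Ube2c (−1.14), while the changes of Bub1 (−0.06) and Mki67 (−0.12) turned and the median change was −0.29. At 5 μg Se/g the same weights called 2 members, Ccng1 (0.50) and Mcm6 (−0.55), and Myc (1.56) was called as well, as it was with replicates 1 and 2 at 2 μg Se/g left out. Of 31042 probe sets the weights called 13048 for the 2 μg Se/g rats, while 3184 were called for those with 5 μg Se/g. Leaving out single arrays gave 0 to 4 members called at 2 μg Se/g, with 4 without replicate 3 of that group. The number of higher means, 20 of 37 at 2 and 16 at 5 μg Se/g, was 11 to 28 and 4 to 28, and the medians −0.07 to 0.19 and −0.28 to 0.11, both signs included.

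In Se-deficient rats the count of members higher at an unadjusted p under 0.05 was 5. It was 8 when all rat arrays were fitted together, 9 with array weights, 8 with replicates 1 and 2 at 2 μg Se/g left out, and 4 to 13 with single arrays left out, the 13 without replicate 2 at 0.24 μg Se/g. With both Se-deficient replicate 2 and 0.24 μg Se/g replicate 3 left out it was 1, and 12 members had a higher mean in place of 35 (26 to 35 with single arrays left out). The median was then −0.15, and Cdk1 (−0.15) and Mki67 (−0.38) turned. This choice and the one without the 2 μg Se/g replicates were made after seeing the data.

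At 0.8 against 0.08 μg Se/g the count of members lower at an unadjusted p under 0.05 was 20. It was 5 when all rat arrays were fitted together and 8 to 23 with single arrays left out, 8 without replicate 2 at 0.08 and 10 without replicate 1 at 0.8 μg Se/g. Ccng1 turned to −0.04 without replicate 2 at 0.8 or replicate 1 at 0.08 μg Se/g, with 0.10 as its highest value, and Ccnd1 to 0.04 without that 0.08 μg Se/g array, with −0.22 as its lowest. In mouse liver the median change at 0.05 μg Se/g was −0.05 without replicate 3 of that group.

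With the replicate block 0 members were called in any comparison, 6 members in place of 5 were higher in Se-deficient rats and 24 in place of 20 lower at 0.8 μg Se/g at an unadjusted p under 0.05, 2 in place of 0 were lower in Se-deficient mouse livers and 2 in place of 1 higher in Se-deficient kidneys, and Mdm2 at 5 μg Se/g had an adjusted p of 0.058. Chek1 had 0.059 with only its 2 groups in the fit and 0.066 with all rat arrays. The cause of these shifts was not tested. Of the other values, 919 kept their direction, side of the threshold or size. Precision is limited by 3 arrays per group, and in the mouse by members with the same value on several arrays.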
